A study of Mus musculus with 4 samples.

Results

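The lysosome is the acidic compartment in which a phagocyte breaks down what it has engulfed. Soluble hydrolases cut sphingolipids, glycosaminoglycans, glycoproteins, glycogen and peptides, membrane proteins line and seal the compartment, and the vacuolar proton pump, a rotary enzyme with a membrane sector (V0) and a cytosolic sector (V1), keeps it acidic. The transcription factors TFEB and TFE3 switch on many of these genes through the CLEAR element, a palindrome built on the letters TCACGTGA. In demyelinating white matter, microglia and macrophages depend on this machinery to degrade myelin debris, and inherited loss of single enzymes such as galactosylceramidase or arylsulfatase A causes leukodystrophy.

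RNA of 38 such genes, of 52636 in each file, was followed in bulk RNA-seq of the corpus callosum, the large white matter tract of the forebrain. The genes were a list of hydrolases and their helpers, membrane proteins, proton pump subunits and 2 transcription factors, with cathepsins left out. All libraries came from Mertk-knockout mice that had received 0.2% cuprizone, an oligodendrocyte-killing copper chelator, in chow for 4 weeks; Mertk encodes a receptor by which phagocytes take up dying cells. Cells of the dissociated tissue were divided into AnnexinV-positive (dying) and AnnexinV-negative (living) cells, with 2 libraries each, and annexin V marks phosphatidylserine on the cell surface. All 4 libraries carry the same genotype, diet and time, and no wild-type or untreated library was analysed here. The labels name neither sex nor age, do not say how the knockout was made, and do not tie a replicate number to an animal, so the p-values reflect the spread among these libraries alone, part of which may be technical.

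Values were read as RPKM, reads per kilobase of gene scaled by a size factor. About 43200000 to 67400000 reads per library fell in genes, and a single read on 1 kb of exon added 0.00833 to 0.0116 to the RPKM. That step did not follow depth. AnnexinV-positive replicates 1 and 2, with about 67400000 and 60100000 reads, had steps of 0.0101 and 0.0116. AnnexinV-negative replicates 1 and 2, with about 50500000 and 43200000 reads, had steps of 0.00833 and 0.0103. The deposited scale is thus not one of equal depth. Of the 38 genes, 37 reached an RPKM of 1 in at least 2 libraries and were tested; the heparan sulfate sulfatase gene Sgsh did not, at 0.346 and 0.459 against 0.694 and 0.455. Wherever values of this kind are given, the first pair belongs to AnnexinV-positive replicates 1 and 2 and the pair after "against" to AnnexinV-negative replicates 1 and 2. The tested gene with the fewest reads, Atp6v0d2, still had about 166 in its lowest library. The kit does not keep strand, and 12 of the 38 genes share exon bases with a gene next to them (Lamp1, Cln3, Hexa, Glb1, Galc, Arsa, Arsb, Sgsh, Idua, Ppt1, Grn and Atp6v1h), whose reads cannot be told apart where they overlap.

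Mertk itself was at an RPKM of 62.6 and 53.6 against 18.8 and 29.9, although all 4 libraries are labelled Mertk knockout; such a total over all exons cannot show which exons were covered, and the knockout was not checked by it. Cell type markers differed between the groups. All 14 markers of homeostatic microglia, which are rich in lysosomes, rose on the deposited scale (0 on the TPM scale, median log2 fold change 0.42). Their summed RPKM was 5247.4 and 5112.7 in the AnnexinV-positive libraries against 2009.8 and 2500.2 in the AnnexinV-negative ones. The RPKM of all genes also summed to more in the AnnexinV-positive libraries, at 200348 and 217768 against 122944 and 120680. As a share of these totals the microglia markers were 2.62% and 2.35% against 1.63% and 2.07%. All 15 markers of mature oligodendrocytes fell on each scale used, from sums of 1121.6 and 630.5 to 103.2 and 87.9. Summed markers of oligodendrocyte precursors, astrocytes, endothelial cells, mural cells and neurons were also lower in both AnnexinV-positive libraries. Only 3 of the 12 neuron markers were tested, and the neuron sum came mostly from Tubb3 and Stmn2. Border macrophage markers summed to 17.9 to 18.1 against 5.88 to 7.08. Of these markers 3 of 10 were tested, and all 3 were higher on the deposited scale. On the TPM scale 0 were higher, where 1 had an unadjusted p under 0.05 in limma. Relative to the microglia markers 0 were higher, with 0 at an unadjusted p. The summed monocyte markers overlapped between groups (28.0 and 32.2 against 16.1 and 36.4), but Fn1 alone made up 25.7 of the 28.0 in AnnexinV-positive replicate 1 and 33.0 of the 36.4 in AnnexinV-negative replicate 2, and Plac8, Vcan and Chil3, all too low to be tested, were higher in both AnnexinV-negative libraries. Of 8 neutrophil markers 3 were tested: S100a8 (0.0208 and 0.167 against 7.30 and 2.19) and S100a9 fell on each scale used, and Csf3r rose on the deposited scale only, while Camp and Ngp were at 0 in at least 1 AnnexinV-positive library. Among lymphocyte markers Igkc (-5.22) and Gzmb (-1.82) fell on each scale, and Ighm (1.17) and Cd79b (1.46) rose on the deposited scale but not on the TPM or microglia-centred scale. Markers of ependyma and choroid plexus went with the replicate number in both groups, with sums of 407.2 and 60.4 against 381.1 and 21.8, mostly from Ttr (382.7 and 54.2 against 359.7 and 18.4). In bulk samples, fewer cells of a type and less RNA per cell cannot be told apart. The part of cell composition in the changes of the lysosomal genes was not tested; instead each comparison is given on the deposited scale, on a TPM scale (each library rescaled to the same total) and on a scale centred on the 14 microglia markers, which asks whether a gene differed beyond the markers' mean.

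The CLEAR letters were found close to the start of several of these genes. RefSeq promoter windows (GRCm38.p6, 250 bases before to 50 after the start) matched 34 of the 38 genes; Asah1, Atp6v0d2, Atp6v1b2 and Atp6v1h had no entry. TCACGTGA, which reads the same on both strands, was in a window of 5 of the 34 genes, or 14.7%, against 1.12% of all 27025 genes with a window and 2.44% of the 7963 tested genes with one. The shorter TCACGTG, searched on both strands (TCACGTG or CACGTGA, which includes the longer palindrome), was in 12 of 34, or 35.3%, against 4.29% and 7.41%. The 5 genes encode the calcium channel of the lysosomal membrane (Mcoln1), the membrane protein CLN3, 2 pump subunits and alpha-galactosidase A (Gla), and their 30-base stretches are shown with the palindrome in capitals, 5′ to 3′ on the gene's strand.
Mcoln1: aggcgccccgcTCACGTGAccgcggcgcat
Cln3: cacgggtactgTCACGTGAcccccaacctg
Atp6v1a: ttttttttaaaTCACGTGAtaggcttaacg
Atp6v0d1: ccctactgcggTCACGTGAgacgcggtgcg
Gla, farther from the start: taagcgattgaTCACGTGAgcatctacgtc
Gla, nearer to the start: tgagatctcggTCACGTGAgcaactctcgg

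These stretches lie at chr8:3500462-3500491 (plus strand), chr7:126583340-126583369, chr16:44139373-44139402, chr8:105566050-105566079, chrX:134601215-134601244 and chrX:134601182-134601211 (all minus strand), in the same order. In GENCODE vM21 the Mcoln1 and Cln3 stretches overlap exons of other transcripts of those genes, and those of Gla an exon of Hnrnph2 on the opposite strand. Lamp1, an abundant glycoprotein of the lysosomal membrane, has no full palindrome but 4 of the shorter boxes, shown in capitals in the 85 bases before its start (chr8:13159076-13159160, plus strand).
Lamp1: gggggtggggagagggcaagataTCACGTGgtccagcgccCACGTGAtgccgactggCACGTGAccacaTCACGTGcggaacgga

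Glb1, Naglu, Gaa, Sgsh, Lgmn and Arsa each have 1 shorter box. Of the genes with TCACGTGA, 4 were among the 28 called higher on the deposited scale that had a window, and Cln3 was among the 5 tested ones not called. A match is a description of the letters and shows neither binding nor use of the site. As many of these genes are known targets through this element, the higher share is not a separate result of these data.

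**Figure D1:**
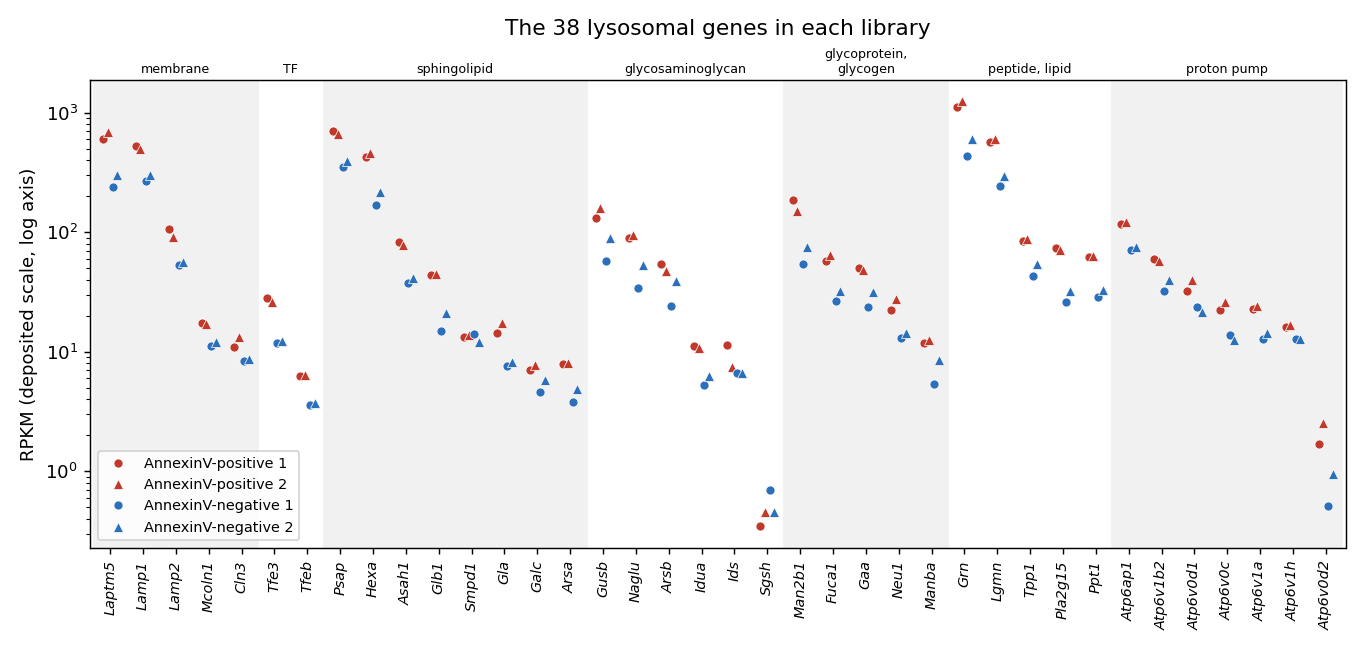
RPKM of the 38 genes on a log axis, grouped by role, with 1 point for each library (red AnnexinV-positive, blue AnnexinV-negative; circle replicate 1, triangle replicate 2). The 2 red points lie above both blue points for 36 genes on this deposited scale, the exceptions being Smpd1 and Sgsh; on the TPM scale 10 of the 37 tested genes had a negative log2 fold change.

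On the deposited scale, 31 of the 37 tested genes rose in AnnexinV-positive cells and 0 fell (limma, adjusted p under 0.05; also 0 lower at an unadjusted p under 0.05), but on the TPM scale 0 were higher, and relative to the microglia markers 0 were higher and 5 lower. The 31 are 83.8% of those tested, where 30.8% of all 10927 genes tested were called higher and 9.26% lower. The median log2 fold change of the 37 was 0.87, between that of all genes tested (0.45) and that of the microglia markers (1.20). The groups did not overlap, with AnnexinV-positive higher, for 36 of the 37, and for 60.9% of all genes tested. Because the median of all genes itself stood at 0.45, a fit with that median set near 0 was made after the data were seen, and in it 8 of the 37 were higher, where 6.53% of all genes were, and 0 lower (also 0 at an unadjusted p).

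The TPM scale moved the median of all genes by -0.76 and the microglia-centred scale by -1.19. Under TPM, the 37 genes had a median of 0.09, against -0.32 for all genes, with 27 genes above 0 and 10 below. At an unadjusted p under 0.05 (limma), 4 were higher (1 each of the membrane, sphingolipid, glycoprotein and peptide groups below) and 2 lower. Of all 10927 genes tested, 456 were higher and 3529 lower by the same p. After adjustment 1 gene, Smpd1, was called lower, where 19.1% of all genes were called lower and 1.03% higher. Relative to the microglia markers the median was -0.32, against -0.74 for all genes, with 7 genes above 0 and 30 below. The 5 genes called lower there were Smpd1, Atp6v1h, Cln3, Galc and Mcoln1, or 13.5% of the 37, while 48.7% of all genes were called lower and 0.110% higher. At an unadjusted p under 0.05 (limma), 0 were higher and 7 lower on that scale, where 19 and 6372 of all 10927 genes tested were.

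**Figure D2:**
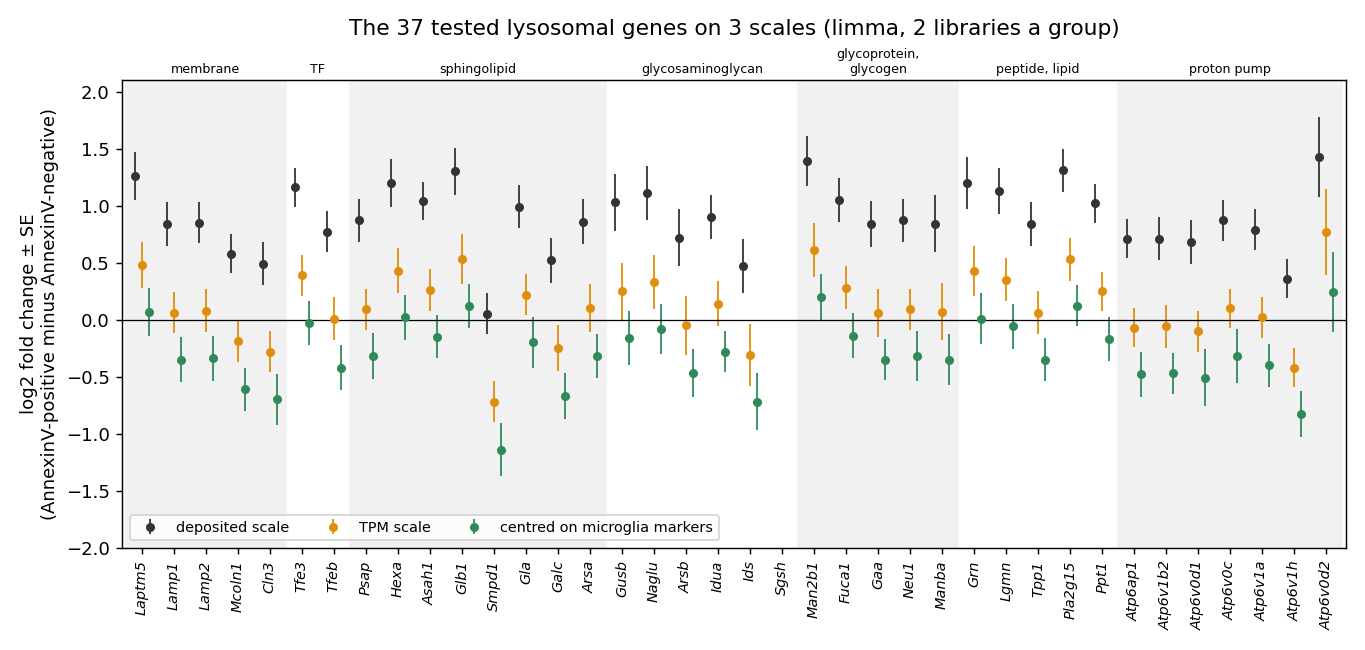
Log2 fold change (AnnexinV-positive minus AnnexinV-negative) with its standard error for the 37 tested genes on the deposited, TPM and microglia-centred scales; Sgsh was not tested and has no point. All 37 lie above 0 on the deposited scale, 27 on the TPM scale and 7 on the microglia-centred scale.

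Part of the count changed when a library was left out. The number of all genes called higher fell as well, most without an AnnexinV-positive library, so the losses below are not particular to these genes. Such a fit also has fewer libraries from which to estimate the spread. Whether a lost call came from that or from the value of the library left out was not tested. Without AnnexinV-positive replicate 1, 17 of the 37 genes were called higher, and without AnnexinV-positive replicate 2, 15 were; without AnnexinV-negative replicate 1 or 2 the counts were 28 and 32. The same genes were tested in each of these fits, and the lone library of a group was assumed to vary like the other group. Passing in the fit of all libraries and in each of these 4 were 12 genes: Laptm5, Tfe3, Hexa, Glb1, Asah1, Naglu, Man2b1, Fuca1, Ppt1, Lgmn, Pla2g15 and Grn. The other 19 each lost the call in at least 1 fit, all of them without one of the AnnexinV-positive libraries. Their adjusted p values in the fits that lost them ran from 0.0570 to 0.173 without AnnexinV-positive replicate 1 and from 0.0546 to 0.225 without replicate 2, and Mcoln1, Manba and Atp6v1b2 (without AnnexinV-negative replicate 1) and Atp6v0d1 (without replicate 2) were also lost.

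The 5 membrane proteins rose in 4 cases on the deposited scale, with 0 called on the TPM scale and 2, Mcoln1 and Cln3, lower relative to microglia markers. Laptm5, a transmembrane protein of blood-cell and microglial lysosomes (chromosome 4, 130913125 to 130936141), was at an RPKM of 605.4 and 686.6 against 238.9 and 304.5. The positive libraries were both more than the higher negative one, with a log2 fold change of 1.26 (SE 0.21, adjusted p 0.00579), and relative to microglia markers the value was 0.07. Lamp1 was at 523.9 and 496.5 against 269.4 and 300.7, a log2 fold change of 0.84 (SE 0.19, adjusted p 0.0139). Lamp2, whose product shields the membrane and serves chaperone-mediated autophagy, was at 107.1 and 91.5 against 53.7 and 56.0 (0.85, adjusted p 0.0116). Their ratio within a library did not separate the groups: Lamp1 stood at 4.89 and 5.42 times Lamp2 against 5.02 and 5.37 times. Lamp1, Lamp2 and Mcoln1 are among the 19 that lost the call without an AnnexinV-positive library.

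Mcoln1 and Cln3 had the smallest log2 fold changes of the 5. Mcoln1, which releases calcium from the lysosome, was at 17.6 and 17.2 against 11.1 and 12.1, a log2 fold change of 0.58 (adjusted p 0.0351) that turned to -0.19 on the TPM scale and -0.61 (adjusted p 0.0406) on the microglia-centred scale. Cln3, the gene of a juvenile neuronal ceroid lipofuscinosis, had a mean RPKM of 12.2 ± 1.70 against 8.61 ± 0.252 (SD, n = 2 each). It did not pass on the deposited scale (0.49, adjusted p 0.0750) and was called lower relative to microglia markers (-0.70, adjusted p 0.0441).

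Both transcription factors rose on the deposited scale, and neither passed on the TPM or microglia-centred scale. Tfe3 (chromosome X, 7762560 to 7775202) was at 28.0 and 26.3 against 11.8 and 12.4, a log2 fold change of 1.16 (SE 0.17, adjusted p 0.00403; -0.03 relative to microglia markers). Tfeb was lower in level, at 6.27 and 6.34 against 3.62 and 3.70 (0.77, adjusted p 0.0169; -0.42 relative to microglia markers). Libraries of a group lay close together for both genes. The ratio of Tfe3 to Tfeb within a library was 4.46 and 4.14 against 3.26 and 3.34, with no overlap.

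Of the 8 genes for breakdown of sphingolipids and glycolipids, the lipid class that makes up much of myelin, 6 rose on the deposited scale, 0 rose on the others, and 1 on the TPM scale and 2 on the microglia-centred scale were lower. Psap, the precursor of the saposins that present these lipids to their enzymes (chromosome 10, 60277627 to 60302597), was the most abundant, at an RPKM of 706.1 and 661.2 against 355.3 and 391.8. Its log2 fold change was 0.87 (SE 0.19, adjusted p 0.0130), with -0.32 relative to microglia markers. Hexa, the alpha chain of beta-hexosaminidase, which clears gangliosides, was at 423.3 and 457.9 against 168.1 and 217.1 (1.20, adjusted p 0.00608). Glb1, lysosomal beta-galactosidase, had a mean RPKM of 44.2 ± 0.203 against 18.1 ± 4.37 (SD, n = 2 each), the largest difference of this group at a log2 fold change of 1.30 (adjusted p 0.00539).

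Acid ceramidase, Asah1, was at 83.2 and 79.1 against 37.6 and 41.4 (log2 fold change 1.04, adjusted p 0.00559). Gla, which cuts globotriaosylceramide, was at 14.4 and 17.3 against 7.67 and 8.20 (0.99, adjusted p 0.00816). Arsa, which removes the sulfate of the myelin lipid sulfatide, was at 7.89 and 8.08 against 3.84 and 4.90 (0.86, adjusted p 0.0160). All 3 were higher in both AnnexinV-positive libraries. Gla and Arsa lost the call without AnnexinV-positive replicate 2, and Arsa also without replicate 1.

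Smpd1 and Galc stood apart from the other sphingolipid genes. Smpd1 encodes acid sphingomyelinase, which turns sphingomyelin into ceramide (chromosome 7, 105554360 to 105558389). It was at an RPKM of 13.4 and 13.8 against 14.1 and 12.1, so the groups overlapped. Its log2 fold change was 0.05 (SE 0.18, adjusted p 0.819) on the deposited scale, -0.72 (adjusted p 0.0312) on the TPM scale and -1.14 (adjusted p 0.0140) relative to microglia markers. Smpd1 stood at 0.161 and 0.174 of Asah1, the next enzyme in the same pathway, in the AnnexinV-positive libraries and at 0.374 and 0.294 in the AnnexinV-negative ones. Galc, which degrades galactosylceramide, the main glycolipid of myelin, was at 7.08 and 7.78 against 4.61 and 5.77 and did not pass on the deposited scale (0.52, adjusted p 0.0771), although it did without AnnexinV-negative replicate 2. It was called lower relative to microglia markers (-0.67, adjusted p 0.0352), and its ratio to Glb1 was 0.161 and 0.175 against 0.307 and 0.272. A single ratio of 2 libraries against 2 cannot reach an exact permutation p below 0.333, so ratios are given without a test.

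Of the 6 genes for glycosaminoglycan breakdown, 5 were tested and 3 rose on the deposited scale, with 0 called on the other scales. Gusb, beta-glucuronidase, was at 131.9 and 160.0 against 57.1 and 88.9 (log2 fold change 1.03, SE 0.25, adjusted p 0.0192). Naglu, which acts on heparan sulfate, was at 89.3 and 94.6 against 34.2 and 53.1 (1.11, adjusted p 0.0128). Idua, alpha-L-iduronidase, was at 11.2 and 10.7 against 5.28 and 6.32 (0.90, adjusted p 0.0111). Gusb and Naglu were far apart in the 2 AnnexinV-negative libraries, with the first lower. Arsb, arylsulfatase B, had the same spread, at 54.3 and 47.6 against 24.4 and 38.8, and did not pass (0.72, adjusted p 0.0558), although it did without AnnexinV-negative replicate 2. Ids, iduronate sulfatase, was at 11.5 and 7.49 against 6.71 and 6.67 and did not pass (0.47, adjusted p 0.153), its AnnexinV-positive libraries differing by more than the groups' nearest values.

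All 5 genes for glycoprotein and glycogen breakdown rose on the deposited scale, with 0 called on the TPM and microglia-centred scales. Man2b1, lysosomal alpha-mannosidase (chromosome 8, 85083270 to 85098282), was at 185.5 and 151.5 against 54.8 and 74.9, a log2 fold change of 1.39 (SE 0.22, adjusted p 0.00515). Relative to microglia markers its value was 0.20 (adjusted p 0.429). Fuca1, alpha-fucosidase, was at 57.2 and 65.1 against 26.4 and 32.6 (1.05, adjusted p 0.00725). Neu1, the lysosomal sialidase, had a mean RPKM of 25.1 ± 3.59 against 13.7 ± 0.895 (SD, n = 2 each; 0.87, adjusted p 0.0130 in limma). Gaa, which breaks down glycogen, and Manba, beta-mannosidase, had log2 fold changes of 0.84 each (adjusted p 0.0179 and 0.0343). Neu1, Gaa and Manba lost the call without AnnexinV-positive replicate 2. Gaa and Manba also lost it without AnnexinV-positive replicate 1, and Manba without AnnexinV-negative replicate 1 as well.

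The 5 genes of peptide, lipid and thioester breakdown together with progranulin all rose on the deposited scale as well, with 0 called on the other scales. Grn, whose product progranulin is secreted and delivered to lysosomes (chromosome 11, 102430315 to 102437048), had the highest RPKM of the 38 genes, at 1109.8 and 1244.9 against 432.6 and 602.3. Its log2 fold change was 1.20 (SE 0.23, adjusted p 0.00891) on the deposited scale and 0.01 relative to microglia markers. Lgmn, the asparaginyl endopeptidase legumain, was at 573.9 and 603.0 against 244.2 and 295.3 (1.13, adjusted p 0.00632). Pla2g15, the lysosomal phospholipase, was at 73.3 and 70.6 against 26.0 and 32.4 and had the smallest adjusted p of the 37 genes (1.31, adjusted p 0.00376). The groups were well separated for all 3. Tpp1, tripeptidyl peptidase, was at 85.2 and 87.8 against 42.8 and 54.5 (0.84, adjusted p 0.0154), and Ppt1, palmitoyl-protein thioesterase, at 61.8 and 63.7 against 29.0 and 32.9 (1.02, adjusted p 0.00602).

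Of the proton pump, 7 genes were listed, and they had a median log2 fold change of 0.71, against 0.99 for the 23 tested enzymes, activators and progranulin; 6 rose on the deposited scale, 0 were called on the TPM scale, and 1 was lower relative to microglia markers. The difference between these medians was not tested. As a share of all RPKM in a library, the 7 summed to 0.136% and 0.133% against 0.135% and 0.147%, while the enzymes with progranulin summed to 1.91% and 1.83% against 1.33% and 1.72%. The called pump genes each lost the call without one or the other AnnexinV-positive library, where calls over all genes fell too.

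In the V0 sector, Atp6v0c, the proteolipid of the proton-carrying ring, was at 22.3 and 26.1 against 13.8 and 12.6 (log2 fold change 0.87, adjusted p 0.0115). Atp6v0d1, the widely used form of subunit d, was at 32.3 and 40.1 against 23.6 and 21.5 (0.68, adjusted p 0.0297; -0.10 on the TPM scale). Atp6v0d2, the form of subunit d known from osteoclasts and macrophages (chromosome 4, 19876841 to 19922605), was at 1.69 and 2.52 against 0.508 and 0.959. Its log2 fold change of 1.43 (SE 0.35, adjusted p 0.0195) was the highest of the 37, at an RPKM far below that of Atp6v0d1. The ratio of Atp6v0d2 to Atp6v0d1 was 0.0522 and 0.0627 against 0.0215 and 0.0447, with no overlap, but the AnnexinV-negative libraries lay farther from each other than the nearer of them lay from the AnnexinV-positive ones.

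In the V1 sector, the catalytic subunit gene Atp6v1a was at 22.9 and 24.1 against 12.7 and 14.4 (0.79, adjusted p 0.0140) and Atp6v1b2, its partner in the nucleotide-binding ring, at 59.6 and 58.0 against 32.1 and 39.9 (0.71, adjusted p 0.0238; -0.06 on the TPM scale). Atp6v1h, a regulatory subunit, was at 16.1 and 16.7 against 12.8 and 12.7 and did not pass on the deposited scale (0.36, adjusted p 0.129). Relative to microglia markers Atp6v1h was lower (-0.83, adjusted p 0.0220). The accessory subunit gene Atp6ap1 was at 116.7 and 121.9 against 71.1 and 74.9 (0.71, adjusted p 0.0183; -0.07 on the TPM scale), the highest RPKM of the 7.

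**Figure D3:**
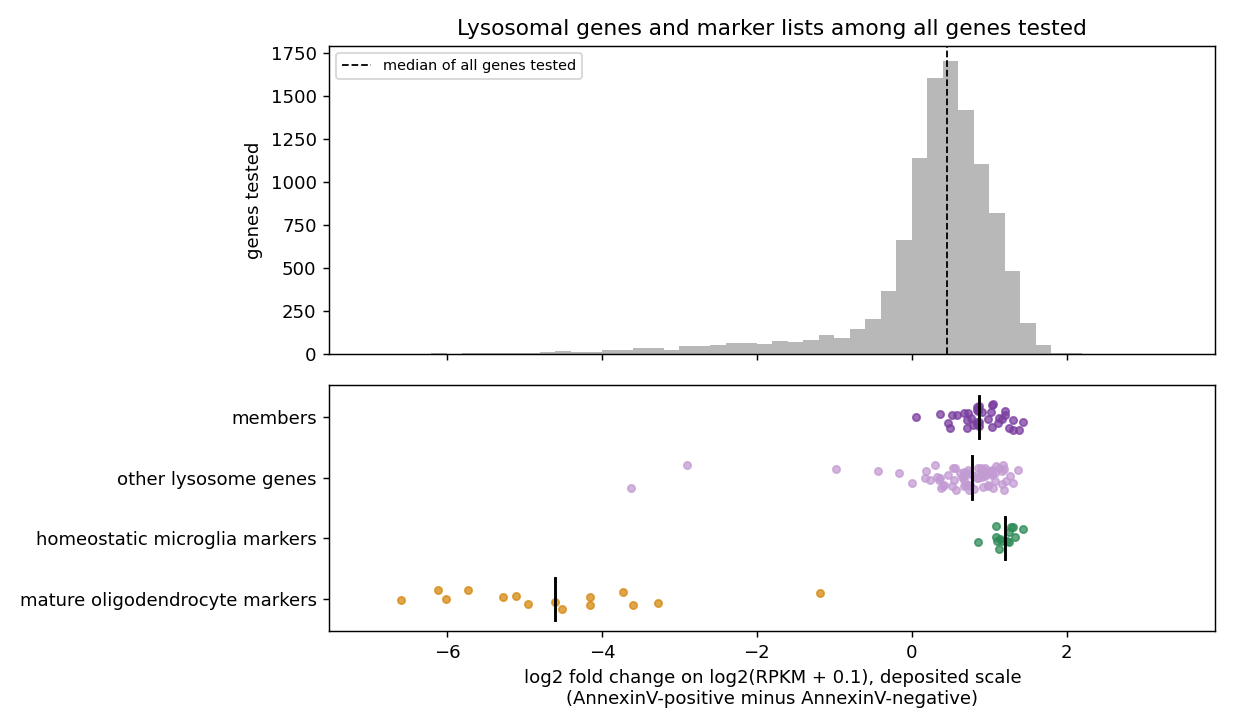
Upper panel, number of genes tested by log2 fold change on the deposited scale, with the median of all genes (0.45) dashed. Lower panel, each tested gene of 4 lists with the list's median as a bar: the 37 lysosomal genes (0.87), other lysosome genes (0.78), homeostatic microglia markers (1.20) and mature oligodendrocyte markers (-4.61); on the TPM scale the medians of the first and second list were 0.09 and 0.03.

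A list of 80 other lysosome genes gave a like picture with some exceptions. On the deposited scale 48 of 71 tested rose and 3 fell, with a median log2 fold change of 0.78. These are 67.6% and 4.23%, where 30.8% of all genes rose and 9.26% fell. On the TPM scale 0 rose and 5 fell (7.04%, where 19.1% of all genes fell). Relative to microglia markers 0 rose and 19 fell (26.8%, where 48.7% of all genes fell). At an unadjusted p under 0.05 (limma), 3 were higher on the TPM scale and 0 on the microglia-centred scale. Of all 10927 genes tested, 456 and 19 were. Without AnnexinV-positive replicate 1 or 2, 29 and 18 rose on the deposited scale. Among other enzymes and membrane proteins, 31 of 42 rose and 1 fell: Dnase2a, the nuclease that digests the DNA of engulfed cells, was at 35.5 and 45.8 against 14.0 and 17.3 (1.37), Cd68, a macrophage lysosomal glycoprotein, at 636.6 and 767.6 against 271.7 and 310.0 (1.27). Rnaset2b, a lysosomal ribonuclease, had a log2 fold change of 1.22, but it and Rnaset2a are near-identical copies whose single values are uncertain. Hyal1, a hyaluronidase, was at 0.538 and 0.554 against 1.26 and 1.09 and fell (-0.98, adjusted p 0.0311); it shares exon bases with Hyal3 and Naa80.

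Of 12 other pump subunits tested, 10 rose and 1 fell on the deposited scale, where 30.8% of all genes rose and 9.26% fell. On the TPM scale 0 rose and 1 fell (1 higher at an unadjusted p in limma), where 19.1% of all genes fell. Relative to microglia markers 0 rose and 2 fell (0 higher at an unadjusted p), where 48.7% of all genes fell. Values of paralogs for the same position in the pump are set side by side here without a test between them. The subunit e gene Atp6v0e was at 22.8 and 29.7 against 15.3 and 12.8 (0.89, adjusted p 0.0161; 0.12 on the TPM scale and -0.30 relative to microglia markers), whereas its paralog Atp6v0e2 (chromosome 6, 48537615 to 48541801) was at 1.49 and 1.71 against 15.2 and 10.4. Atp6v0e2 fell on the deposited scale (log2 fold change -2.90, SE 0.24, adjusted p 6.20e-04), the TPM scale (-3.73) and the microglia-centred scale (-4.09). Within a library, Atp6v0e2 stood at 0.993 and 0.813 of Atp6v0e in AnnexinV-negative and at 0.0653 and 0.0577 in AnnexinV-positive cells. For subunit a, the ratio of Tcirg1, the a3 form of osteoclasts and macrophages, to the a1 form Atp6v0a1 was 1.34 and 1.45 against 1.02 and 1.04, and that of the a2 form Atp6v0a2 to Atp6v0a1 was 0.379 and 0.343 against 0.504 in both. Tcirg1 itself rose on the deposited scale, from 18.3 and 24.5 to 51.9 and 53.3 (1.31, adjusted p 0.00454; 0.12 relative to microglia markers). The V1 genes Atp6v1c1 and Atp6v1f had log2 fold changes of 0.92 and 0.89 on the deposited scale.

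The Rag GTPases recruit the growth regulator mTORC1 to the lysosome and so restrain TFEB. Of 17 tested genes of the MiT factors and mTORC1 control, 7 rose and 1 fell on the deposited scale, where 30.8% of all genes rose and 9.26% fell, so that these shares are near those of all genes. On the TPM scale 0 rose and 2 fell, and relative to microglia markers 0 rose and 5 fell (0 higher on either at an unadjusted p in limma). Of all genes, 19.1% fell on the TPM scale and 48.7% relative to microglia markers. The gene that fell on the deposited scale was Rragb (chromosome X, 153139981 to 153171943), at an RPKM of 0.112 and 0.144 against 3.26 and 2.22 (log2 fold change -3.62, SE 0.33, adjusted p 8.47e-04). Its paralog Rraga was at 13.5 and 15.6 against 14.5 and 11.5, with overlapping groups, and the ratio of Rragb to Rraga was 0.00829 and 0.00922 against 0.225 and 0.194. Mitf, a relative of TFEB, and Rptor, the mTORC1 scaffold, had log2 fold changes of 1.08 each on the deposited scale (0.33 and 0.32 on the TPM scale, -0.11 each relative to microglia markers), and Lamtor4, part of the Ragulator anchor, of 0.90. Rragb was also lower on the TPM (-4.97) and microglia-centred (-4.81) scales. Summed markers of mature oligodendrocytes moved the same way as Atp6v0e2 and Rragb (103.2 and 87.9 against 1121.6 and 630.5). So did those of neurons (2.44 and 2.36 against 17.5 and 11.7) and oligodendrocyte precursors (20.1 and 18.1 against 161.8 and 129.6). In the AnnexinV-negative libraries most of the neuron sum came from Tubb3 (8.97 and 5.82) and Stmn2 (3.76 and 1.57). Of the neuron markers too low to be tested, Slc17a7, Camk2a and Nrgn overlapped between groups. Rbfox3 was higher in both AnnexinV-positive libraries (0.150 and 0.118 against 0.0897 and 0.0566). The sums for astrocytes, endothelial cells and mural cells were lower in both AnnexinV-positive libraries as well. The part of any of these cell types in the changes of the 2 genes was not tested.

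**Figure D4:**
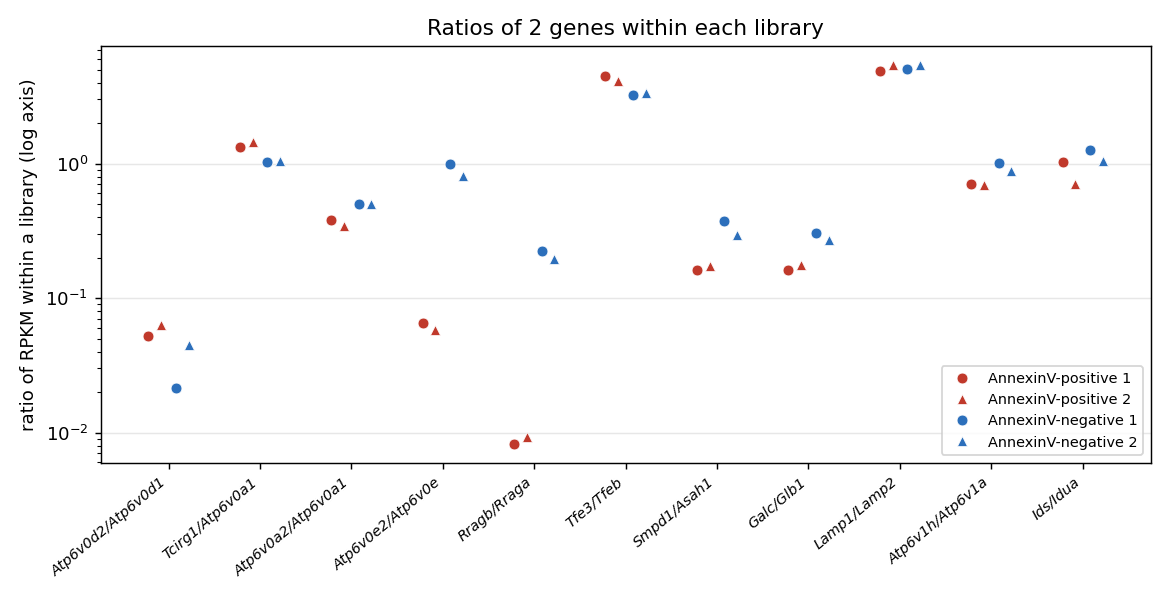
Ratio of the RPKM of 2 genes within each library, on a log axis, which no rescaling of a library changes (red AnnexinV-positive, blue AnnexinV-negative; circle replicate 1, triangle replicate 2). Atp6v0e2 to Atp6v0e and Rragb to Rraga stand far lower in the red points, while Lamp1 to Lamp2 overlaps between groups; the pairs were chosen after their values were seen.

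The 2 AnnexinV-negative libraries also differed from each other. Of the 38 genes, 32 were lower in AnnexinV-negative replicate 1 than in replicate 2, where 51.4% of all genes tested were, and the 6 others were Sgsh, Smpd1, Ids, Atp6v0c, Atp6v0d1 and Atp6v1h. In the AnnexinV-positive pair, 25 of the 38 were lower in replicate 1, where 55.5% of all genes tested were. The 38 genes summed to 1.95% and 2.45% of all RPKM in AnnexinV-negative libraries 1 and 2, and to 2.70% and 2.58% in the AnnexinV-positive ones. In the same order, AnnexinV-negative libraries 1 and 2 held 1.63% and 2.07% microglia marker RPKM and 0.912% and 0.522% oligodendrocyte marker RPKM. Set against the geometric mean of the microglia markers within each library, 24 of the 38 genes were higher in both AnnexinV-negative libraries, 12 overlapped, and 2, Man2b1 and Pla2g15, were higher in both AnnexinV-positive libraries. Among all 10927 genes tested, which leave out Sgsh, 74.7% were higher in both AnnexinV-negative and 2.35% in both AnnexinV-positive libraries by the same ratio.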

How the data were processed

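The submitters' processing notes name the aligner GSNAP and the build mm10. Its version, the counter, the annotation and the filters were not found there (not given in the sources used here). The deposited values carry no unit and were read as RPKM that the authors had scaled by a size factor. Of the values worth under 100 reads, 79.6% to 83.6% were within 0.01 of whole reads once multiplied by exonic length in GENCODE vM21. Over all values above 0 the share was 60.7% to 62.2%. That annotation is on GRCm38, the assembly also called mm10, and held 52403 of the 52636 gene IDs. Read totals were recovered from the same steps and are approximate.

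Log2(RPKM + 0.1) was compared between groups, AnnexinV-positive minus AnnexinV-negative, with limma 3.58.1 in R 4.3.3 (intensity trend, no covariate) for the 10927 genes that reached an RPKM of 1 in at least 2 libraries. Fold changes on this scale understate those of low genes. A gene was called when its p-value, adjusted by Benjamini and Hochberg across those 10927, was under 0.05. Groups came from the titles, and the fit was tested on simulated data. Members, lists and tests were chosen with earlier results of these data known. Each member is named; from each of the 3 lists of other lysosome genes, the text names at most 3 called genes in each direction, those with the largest change among genes without overlap of groups. Atp6v0e, Atp6v0a1, Atp6v0a2, Rraga and the pairs for ratios were chosen after their values were seen. Alternatives changed the pseudocount, filter, scale, trend, replicate block and libraries used.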

Additional observations from a re-analysis of the deposited data

How the results depend on the processing

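Only limma was used, because the values were read as RPKM, and no count test was run on the approximate reads. With 2 libraries a group, most limits come from the scale and from the small number of libraries. Unless named, the cause of a move was not tested. Pseudocounts of 0.01 and 1 left all 37 members on the same side of the threshold, and no trend left 36 and a minimum RPKM of 5 left 35 of 36. Without a filter 10 of the 37 lost the call, with more genes tested. The settings with the median difference set to 0 and the crossed block, were chosen after seeing the data.

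Members called higher, 31 in all libraries, numbered 12 when each library was centred on its median, 8 with the median difference set to 0, and 0 on the TPM and microglia-centred scales, and 15 to 32 when each library was left out in turn, where the tested genes were held fixed. Members called lower, 0 on the deposited scale, numbered 1 on the TPM and 5 on the microglia-centred scale. Over all genes, 3364 called higher became 1865 with no filter, 1133 centred on the median, 713 with the median difference set to 0, 113 on the TPM scale, 12 on the microglia-centred scale and 1297 to 3356 without a library. The 1012 called lower became 2489 with no filter, 270 at the RPKM minimum of 5, 2091 on the TPM and 5319 on the microglia-centred scale. Of the other lysosome genes, 48 called higher became 29 with no filter, 16 centred on the median, 8 with the median difference set to 0, 0 on the TPM and microglia-centred scales and 18 to 44 without a library; 3 called lower became 1 at the RPKM minimum of 5, 5 on the TPM and 19 on the microglia-centred scale.

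The replicate numbers are not tied to animals, and deviations of same-numbered libraries correlated at -0.215 over 10927 genes. With the replicate number as a block, 27 members were higher and 0 lower (all genes 2443 and 957, other lysosome genes 34 and 2), and Mcoln1 (adjusted p 0.111), Tfeb (0.0510), Atp6v0d1 (0.0727) and Atp6v1b2 (0.0547) were lost in limma. With the block crossed, 34 members, 4891 of all genes and 54 other lysosome genes were higher, and 0, 1136 and 3 were lower.

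The sign of some log2 fold changes turned. Smpd1 was at -0.26 centred on the median, -0.37 with the median difference set to 0 and between -0.05 (without AnnexinV-negative replicate 2) and 0.16 (without AnnexinV-negative replicate 1) when a library was left out, and Atp6v1h at -0.06 with the median difference set to 0. On the TPM scale Mcoln1 was at -0.19, Cln3 -0.28, Galc -0.25, Smpd1 -0.72, Arsb -0.05, Ids -0.31, Atp6v0d1 -0.10, Atp6v1b2 -0.06, Atp6v1h -0.42 and Atp6ap1 -0.07. On the microglia-centred scale Lamp1 was at -0.35, Lamp2 -0.34, Mcoln1 -0.61, Cln3 -0.70, Tfeb -0.42, Tfe3 -0.03, Gla -0.20, Galc -0.67, Arsa -0.32, Asah1 -0.15, Smpd1 -1.14, Psap -0.32, Gusb -0.16, Arsb -0.47, Naglu -0.08, Ids -0.72, Idua -0.28, Neu1 -0.32, Manba -0.35, Fuca1 -0.14, Gaa -0.35, Tpp1 -0.35, Ppt1 -0.17, Lgmn -0.06, Atp6v0c -0.32, Atp6v0d1 -0.51, Atp6v1a -0.40, Atp6v1b2 -0.47, Atp6v1h -0.83 and Atp6ap1 -0.48.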
